A study of Homo sapiens with 6 samples.

Results

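The insulin-like growth factor (IGF) system was followed at the RNA level in MRC5 cells, an established line of human lung fibroblasts. Its 10 genes were taken by name: the ligands IGF1 and IGF2, the receptors IGF1R and IGF2R, and the IGF-binding proteins IGFBP2, IGFBP3, IGFBP4, IGFBP5, IGFBP6 and IGFBP7. All 10 were found among the 58676 gene identifiers of the deposited count table, and all passed the minimum of 10 counts over the 6 libraries that 19072 genes met. The choice was made with earlier results of these data known. It leaves out IGFBP1, which had 7 counts over all libraries and was not tested. MRC5 cells had been kept for 24 h in conditioned media (CM) from ATII ER:KRASV12 cells, a human alveolar epithelial type II line that carries a KRASV12 protein fused to an estrogen receptor domain and activated by 4-hydroxytamoxifen (4-OHT). The CM came either from control ATII ER:KRASV12 cells (called control CM here, 3 libraries) or from the same cells after 24 h of 4-OHT (called 4-OHT CM, 3 libraries). The comparison asked how RNA levels in fibroblasts responded to the secreted products of RAS-activated alveolar cells.

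Both groups share the fibroblast line and the epithelial line, so the donor cells of either CM carry the KRASV12 fusion and differ in whether 4-OHT was given. The sources used here do not say whether 4-OHT remained in the CM, and an effect of the compound itself cannot be told apart from that of RAS activation in the donor cells. The labels do not state that the 3 libraries of a group came from separate cultures, so the p-values measure the spread between these libraries, which may be technical. In such bulk RNA a change in the number of cells of one kind and a change in RNA per cell cannot be told apart.

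IGF1 and IGF2 are secreted growth factors that act through IGF1R, a receptor tyrosine kinase coupled to the PI3K-AKT and RAS-ERK pathways, whereas IGF2R binds IGF2 and mannose 6-phosphate-tagged enzymes and carries them to lysosomes. IGF-binding proteins hold the ligands in the extracellular space, limit or prolong their access to IGF1R, and are themselves cleaved by extracellular proteases. Fibroblasts are a major source of these binding proteins in the lung, and IGFBP3 and IGFBP5 are known for raised levels and matrix-promoting activity in lung fibrosis.

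The libraries held between 17691849 and 26389449 counts in genes. All 10 fibroblast markers examined (COL1A1, COL1A2, COL3A1, PDGFRA, PDGFRB, THY1, DCN, LUM, VIM and FAP) were detected, and together they made up 41087 to 44604 CPM (counts relative to library size) in control CM and 42960 to 44701 CPM in 4-OHT CM. COL3A1, PDGFRA, DCN and LUM were called higher in 4-OHT CM and VIM lower at an adjusted p below 0.05 (edgeR), beside 5.72% of all genes called in either direction. Of 10 epithelial markers, examined for carried-over ATII cells, SFTPA1 and NKX2-1 had 0 counts, SFTPC and SFTPB had 1 count each and CDH1 had 4 over all libraries. The other 5 were detected, with 7083 counts for the keratin KRT18, 4481 for KRT8, 954 for KRT19, 147 for ABCA3 and 48 for EPCAM. The 10 markers, mostly KRT18 and KRT8, summed to 91.3 to 97.7 CPM in control CM and to 89.6 to 95.8 CPM in 4-OHT CM, with 0 of the 5 tested called by edgeR, DESeq2 or limma-voom and 0 at an unadjusted p below 0.05. Over all genes edgeR called 5.72%, and 3306 of 19072 had an unadjusted p below 0.05, so 0 of 5 says little. The paper describes an epithelial-mesenchymal transition in the 4-OHT-treated donor cells. Epithelial markers may therefore miss such cells, and carry-over in 4-OHT CM cannot be judged from them. Of the endothelial markers, PECAM1 and CDH5 had 0 counts and VWF had 50 (adjusted p = 0.836), and the leukocyte markers PTPRC and CD68 had 2 and 4. Replicate 2 of control CM stood apart from the other control libraries in a way that followed transcript length: against the mean of the other 2, its median log2 difference was 0.053 for genes with under 3000 bases of exon and -0.11 for genes with 10000 bases or more, over genes with a mean log2 CPM above 3. Set against the other 2 controls in the same way, which include replicate 2, the medians of these length classes were -0.045 and 0.068 for replicate 1 and -0.0058 and 0.044 for replicate 3. In 4-OHT CM the matching medians stayed between -0.0043 and 0.0053 in every length class. Values without replicate 2 of control CM are given below wherever they change the call of an IGF gene or of a pathway gene.

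Of the 10 IGF genes, 2 passed the test at an adjusted p below 0.05 and both rose, IGFBP5 and IGFBP4, while 0 passed as lower by edgeR, DESeq2 or limma-voom. Over all genes, 5.72% were called in either direction, 2.95% as higher and 2.76% as lower in 4-OHT CM. An unadjusted p below 0.05 was reached by 5 of the 10 genes, against 3306 of 19072 genes overall. In 3 of the 10, IGFBP4, IGFBP5 and IGFBP6, every library of 4-OHT CM lay above every control library, and none had the opposite arrangement; over all genes the groups did not overlap in 22.1%, with 11.7% higher and 10.4% lower. The median log2 fold change was 0.10 over the 10 genes and -0.0021 over all genes tested, and the median size of the change regardless of direction was 0.11 and 0.12. Since the 10 genes were chosen with earlier results known, these comparisons with all genes are descriptive only.

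Levels compared between genes per kilobase of exon (FPKM, computed from the counts and the deposited exon lengths) differed widely. In control CM the mean level of IGFBP5 was 2975 FPKM, followed by IGFBP4 at 739, IGFBP7 at 428, IGFBP6 at 161 and IGFBP3 at 106 FPKM. The receptors came next, with IGF2R at 17.6 and IGF1R at 4.96 FPKM, then IGFBP2 at 3.53 FPKM, and the ligands came last, with IGF2 at 0.55 and IGF1 at 0.081 FPKM. The order was the same in 4-OHT CM, and in neither group did the libraries of neighbouring genes in this order overlap. The narrowest step was between IGF1R and IGFBP2, whose mean levels differed 1.41-fold in control CM and 1.30-fold in 4-OHT CM. Summed FPKM over the 6 binding proteins was 4412 ± 58.9 (SD, n = 3) in control CM and 5151 ± 201 (SD, n = 3) in 4-OHT CM, beside 0.631 ± 0.126 and 0.715 ± 0.103 FPKM for both ligands together.

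**Figure D1:**
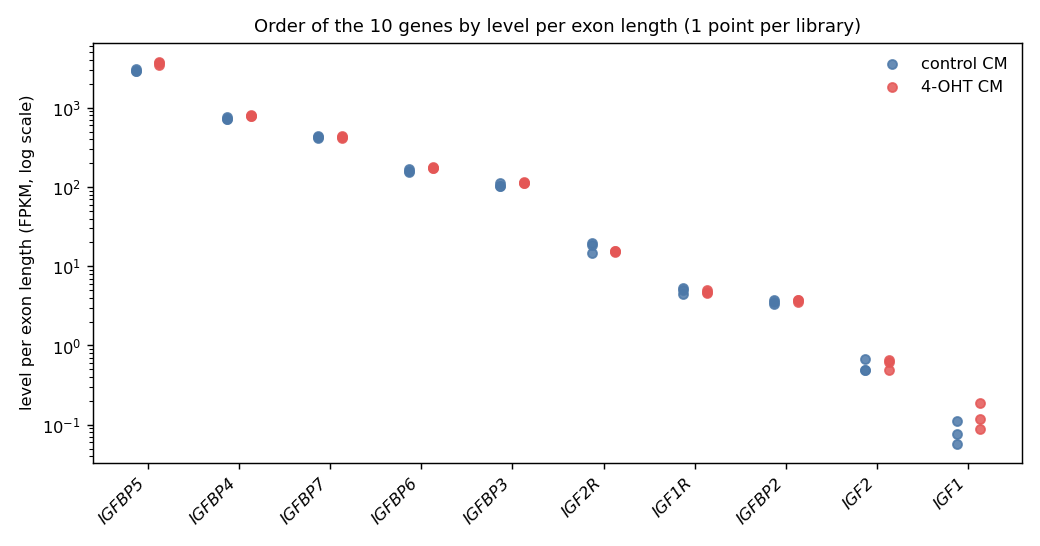
Level per exon length (FPKM, log scale) of the 10 IGF genes, ordered by level, with 1 point per library, blue for control CM and red for 4-OHT CM. IGFBP5, IGFBP4, IGFBP7, IGFBP6 and IGFBP3 stand above both receptors, IGFBP2 lies just under IGF1R, and IGF2 and IGF1 lie lowest.

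IGF1, the ligand through which growth hormone stimulates growth, was close to the limit of detection. The gene (ENSG00000017427, chromosome 12, 102395874 to 102481744, minus strand, GRCh38) had 10, 16 and 14 counts in control CM and 21, 18 and 40 counts in 4-OHT CM, equal to 0.468, 0.896 and 0.618 CPM against 0.959, 0.722 and 1.52 CPM. The groups overlapped, since replicate 2 of 4-OHT CM lay below replicate 2 of control CM. Its log2 fold change of 0.72 (SE 0.338, 95% interval -0.00019 to 1.44) had the widest interval of the 10 genes and did not pass the test (edgeR adjusted p = 0.288). The value rested in part on single libraries, since it was 0.36 without replicate 3 of 4-OHT CM and 0.97 without replicate 2 of control CM. Of the exon length of IGF1, 82.4% lies opposite HELLPAR, a noncoding RNA on the other strand that held 30 counts over all libraries, and whether reads were counted by strand is not given in the sources used here.

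IGF2, the ligand of fetal growth expressed from the paternal chromosome in most tissues, was higher than IGF1 but still low. This gene (ENSG00000167244, chromosome 11, 2129112 to 2149603, minus strand) measured 3.42, 4.65 and 3.44 CPM in control CM and 3.38, 4.53 and 4.30 CPM in 4-OHT CM. Lowest and highest values of the 6 libraries fell in different groups, which overlapped. The test gave a log2 fold change of 0.10 (SE 0.162, 95% interval -0.24 to 0.45, adjusted p = 0.820). Exons annotated to INS-IGF2 and to ENSG00000284779 on the same strand cover 20.9% and 73.7% of the exon length of IGF2, and both of these had 0 counts in every library, so reads that fit more than 1 of the overlapping genes may not have been assigned to IGF2 and its level is uncertain.

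IGF1R, the signaling receptor of both ligands (ENSG00000140443, chromosome 15, 98648539 to 98964530, plus strand), stood at 74.4, 63.0 and 70.1 CPM in control CM and at 64.8, 69.3 and 65.9 CPM in 4-OHT CM. The lowest library was replicate 2 of control CM, and all 3 libraries of 4-OHT CM lay inside the control range. The test gave a log2 fold change of -0.055 (SE 0.0525, 95% interval -0.17 to 0.056, adjusted p = 0.666).

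IGF2R, the clearance receptor of IGF2 (ENSG00000197081, chromosome 6, 159969099 to 160113507, plus strand), had a call that changed when control replicate 2 was left out. It measured 347.8, 260.8 and 334.4 CPM in control CM and 272.6, 274.2 and 276.8 CPM in 4-OHT CM. Control replicates 1 and 3 lay above every library of 4-OHT CM and control replicate 2 lay below all of them. With all 6 libraries the log2 fold change was -0.20 (SE 0.0719, 95% interval -0.35 to -0.044, adjusted p = 0.144), and without replicate 2 of control CM it was -0.31 (SE 0.0292, adjusted p = 1.32e-06). IGF2R has 17843 bases of exon, and in replicate 2 of control CM it lay 0.39 below the other controls on the log2 scale, while genes with 10000 bases of exon or more lay 0.11 below at the median. After a trend on exon length had been removed from every library, an adjustment chosen after seeing the data, the log2 fold change of IGF2R was -0.14 (adjusted p = 0.0936). The part of this library in the result was not tested further. The ratio of IGF1R to IGF2R in FPKM was 0.284 ± 0.0221 (SD, n = 3) in control CM and 0.311 ± 0.0111 (SD, n = 3) in 4-OHT CM.

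**Figure D2:**
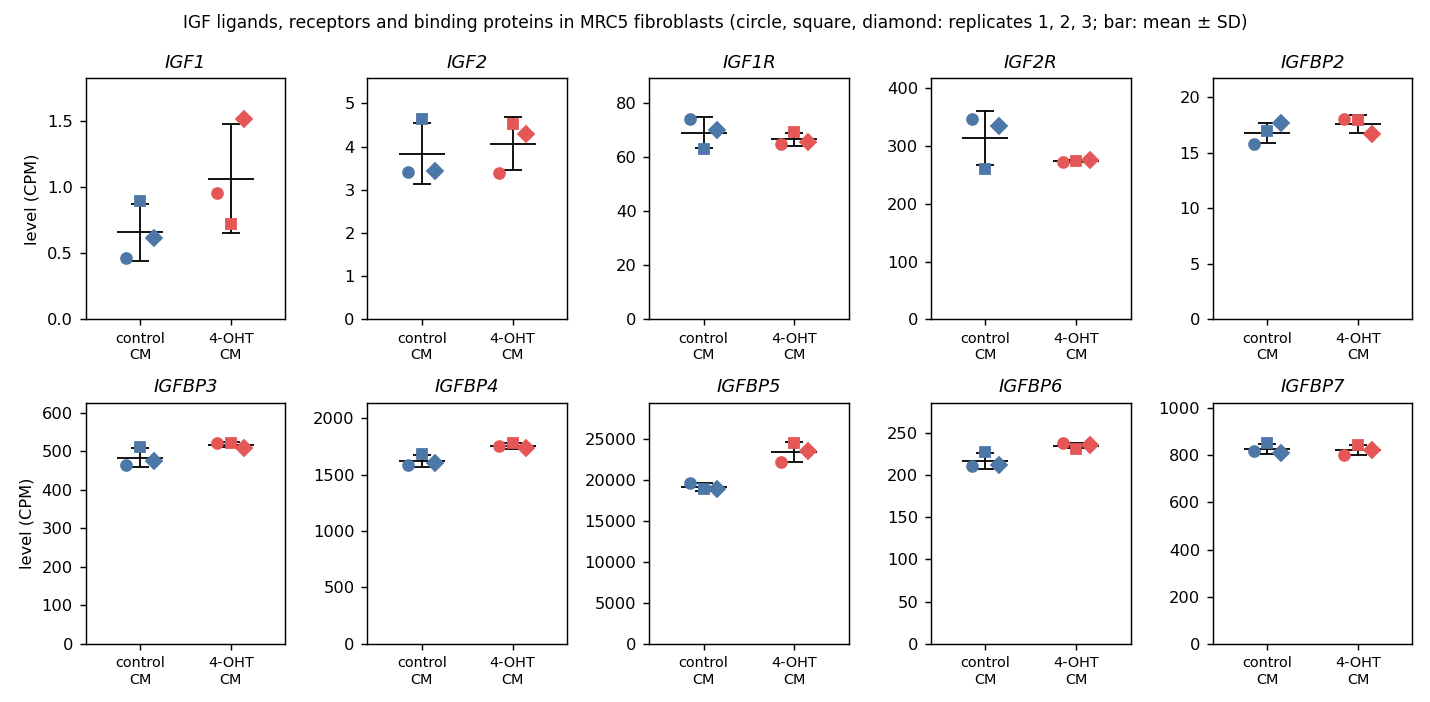
Level in CPM of each of the 10 IGF genes in each library, with circles, squares and diamonds for replicates 1, 2 and 3 and a bar for the mean ± SD (n = 3). IGFBP4, IGFBP5 and IGFBP6 show every library of 4-OHT CM above every control, and IGF2R shows control replicate 2 at 260.8 CPM apart from the other controls.

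IGFBP5, a secreted protein that binds both IGFs and also attaches to extracellular matrix, rose in 4-OHT CM. The gene (ENSG00000115461, chromosome 2, 216672105 to 216695525, minus strand) lies 7668 bases from the end of IGFBP2, and the 250 bases ahead of its RefSeq start at chr2:216695550-216695799 (minus strand, GRCh38.p14) are shown because it is the member with the clearest change, with a TATA-like stretch in capitals whose first letter lies 31 bases before the start.
IGFBP5: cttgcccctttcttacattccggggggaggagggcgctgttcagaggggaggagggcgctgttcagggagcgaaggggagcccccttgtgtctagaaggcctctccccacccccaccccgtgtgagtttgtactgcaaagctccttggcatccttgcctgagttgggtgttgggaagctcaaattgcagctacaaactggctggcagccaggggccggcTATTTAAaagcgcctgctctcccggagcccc

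The level of IGFBP5 was 19678, 18903 and 18905 CPM in control CM and 22158, 24542 and 23549 CPM in 4-OHT CM. All 3 libraries of 4-OHT CM lay above all control libraries, and the controls lay close together. The mean rose from 19162 ± 447 to 23416 ± 1197 CPM (SD, n = 3 each), a 1.22-fold increase with a log2 fold change of 0.29 (SE 0.0291, 95% interval 0.23 to 0.35, edgeR adjusted p = 2.73e-05). By p-value it ranked 32 of the 19072 genes tested. The call was made in 15 of 15 alternative analyses, with log2 fold changes from 0.25 to 0.33.

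IGFBP5 held more counts than any other gene in all 6 libraries, so its rise was large in absolute terms. Its mean CPM over the libraries was 21289, beside 17178 for COL1A1, the next gene. Between the group means it gained 4254 CPM, whereas the next gains were 994 CPM for DCN, 938 CPM for EEF1A1 and 645 CPM for COL3A1. On the FPKM scale its rank among all genes was 5 in control CM and 2 in 4-OHT CM. As a share of all counts, IGFBP5 took 1.97, 1.91 and 1.88% in control CM and 2.23, 2.43 and 2.35% in 4-OHT CM. The difference between the mean shares of 1.92 ± 0.0445% and 2.34 ± 0.105% gave p = 0.1 in a two-sided exact permutation test, which can go no lower with 3 libraries in each group. When library sizes were taken without the counts of the 10 IGF genes, IGFBP5 was still called.

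The 3 genes whose pattern over the 6 libraries lay closest to that of IGFBP5 were DUSP22, MTARC2 and CARD16. Their log2 CPM, centred on the mean of the libraries, differed from that of IGFBP5 by 0.0151, 0.0168 and 0.0176 on average, beside a median difference of 0.155 over the 13042 genes compared. CARD16 has a transcript nearly identical to one of CASP1, which makes its own level uncertain.

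IGFBP4, a binding protein that mainly restrains IGF action until it is cleaved by the protease PAPPA, was the second most abundant binding protein and rose by a small amount. The gene (ENSG00000141753) spans 40443461 to 40457731 on the plus strand of chromosome 17. Its 250 bases ahead of the RefSeq start, chr17:40443200-40443449 (plus strand, GRCh38.p14), are shown as those of the other called member, and capitals mark a TATA box 29 bases and a GC box, read on the opposite strand, 83 bases before the start.
IGFBP4: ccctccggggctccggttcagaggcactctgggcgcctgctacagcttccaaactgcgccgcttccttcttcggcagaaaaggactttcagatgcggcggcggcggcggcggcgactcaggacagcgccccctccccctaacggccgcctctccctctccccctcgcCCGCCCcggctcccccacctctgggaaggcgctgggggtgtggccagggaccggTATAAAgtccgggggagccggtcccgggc

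RefSeq promoter windows were listed for 8 of the 10 IGF genes, not for IGF2 and IGFBP7. Each 250-base window was searched on both strands for 4 short motifs, none of which overlapped another in the windows shown. A TATA box, searched as the letters TATAAA, occurs in 10.7% of all 35116 windows of this length, and of the 8 IGF genes with a window only IGFBP4 held it. The TATA-like letters TATTTAA occur in 4.17% of the windows and, of the IGF genes, only in that of IGFBP5. A GC box, searched as GGGCGG, occurs in 42.6% and an E-box, searched as CACGTG, in 6.35% of the windows. IGF2R held 6 matches to the GC box, of which those at 105 and 101 bases before the start overlap each other, and 3 E-boxes, IGFBP3 and IGF1R 2 GC boxes each, IGFBP6 1 GC box and 2 of the 3 windows of IGFBP2 1 GC box each, whereas both windows of IGF1 held none of the 4 motifs. Such matches describe the letters of the window and do not show that a factor binds there.

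In control CM the libraries measured 1586, 1687 and 1605 CPM of IGFBP4, and in 4-OHT CM 1753, 1782 and 1733 CPM. The groups did not overlap, and control replicate 2 came closest to the libraries of 4-OHT CM. The means were 1626 ± 53.5 and 1756 ± 24.6 CPM (SD, n = 3 each), a 1.08-fold increase with a log2 fold change of 0.11 (SE 0.0284, 95% interval 0.051 to 0.17, adjusted p = 0.0299). The call was made in 9 of 15 alternative analyses and was lost when any library other than control replicate 2 was left out, with adjusted p from 0.0785 to 0.151. Without control replicate 2 the log2 fold change was 0.14 (adjusted p = 0.000386).

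IGFBP6, which binds IGF2 in preference to IGF1, was higher in every library of 4-OHT CM without passing the test. Its gene (ENSG00000167779, chromosome 12, 53097436 to 53102345, plus strand) measured 211, 227 and 212 CPM in control CM and 238, 231 and 236 CPM in 4-OHT CM. The mean levels were 217 ± 9.05 and 235 ± 3.50 CPM (SD, n = 3 each), with a log2 fold change of 0.12 (SE 0.0365, 95% interval 0.041 to 0.20, adjusted p = 0.0759). Without control replicate 2, the highest control, it passed at a log2 fold change of 0.15 (adjusted p = 0.00291). It also passed after removal of the length trend, an adjustment chosen after seeing the data (adjusted p = 0.0316). In all it was called in 4 of 15 alternative analyses, and not with DESeq2 (adjusted p = 0.0646) or a replicate block (adjusted p = 0.109).

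IGFBP3, the main carrier of IGFs in blood and a protein induced by TGF-β in many cells, gave 465, 511 and 473 CPM in control CM and 521, 521 and 508 CPM in 4-OHT CM. Its gene (ENSG00000146674) lies on chromosome 7 at 45912245 to 45921874, minus strand. Control replicate 2 was above replicate 3 of 4-OHT CM, so the groups overlapped in that pair. The log2 fold change was 0.098 (SE 0.0358, 95% interval 0.022 to 0.17, adjusted p = 0.143) with all libraries and 0.14 (adjusted p = 0.00212) without control replicate 2. In that library IGFBP3, IGFBP4 and IGFBP6 lay 0.12, 0.080 and 0.10 above the other controls on the log2 scale. After removal of the length trend the log2 fold change of IGFBP3 was 0.091 and did not pass (adjusted p = 0.134). IGFBP3 was called in 2 of 15 alternative analyses.

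IGFBP2, a binding protein with a cell-attachment RGD sequence (ENSG00000115457, chromosome 2, 216632828 to 216664436, plus strand), was the least abundant of the 6. It stood at 15.8, 17.0 and 17.6 CPM in control CM and at 18.1, 18.0 and 16.7 CPM in 4-OHT CM, with overlapping groups. The log2 fold change was 0.063 (SE 0.0715, 95% interval -0.089 to 0.21, adjusted p = 0.734).

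IGFBP7, a matrix-associated relative that binds IGFs weakly (ENSG00000163453, chromosome 4, 57030773 to 57110385, minus strand), gave close values in both groups. Its libraries measured 820, 852 and 808 CPM in control CM and 801, 845 and 821 CPM in 4-OHT CM. The log2 fold change was -0.0078 with a 95% interval from -0.074 to 0.059 (SE 0.0312, adjusted p = 0.940), so a change of the size seen for IGFBP5 lies outside the interval. On the opposite strand POLR2B, with 17495 counts over all libraries, overlaps 14.0% of the exon length of IGFBP7.

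**Figure D3:**
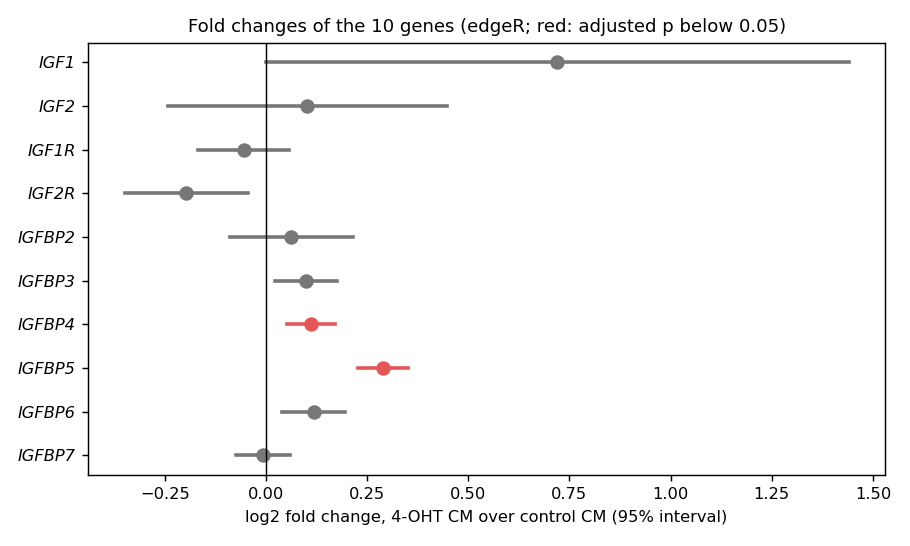
Log2 fold change of 4-OHT CM over control CM for the 10 IGF genes, with the 95% interval from edgeR as a bar and red for an adjusted p below 0.05. IGFBP5 and IGFBP4 are in red at 0.29 and 0.11, and IGF1 has the widest interval, from -0.00019 to 1.44.

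IGFBP5 made up most of the binding protein RNA in both groups, and its share was larger in every library of 4-OHT CM than in any control. Of the summed TPM of the 6 binding proteins, which scales FPKM to the same total in each library, IGFBP5 made up 67.4 ± 1.08% in control CM and 70.5 ± 0.895% in 4-OHT CM (SD, n = 3 each). The mean shares of IGFBP4 were 16.8 and 15.5%, those of IGFBP7 were 9.71 and 8.27%, those of IGFBP6 were 3.65 and 3.40%, and those of IGFBP3 were 2.40 and 2.20%. These shares must sum to the whole, so a rise of 1 lowers the others, and IGFBP4 lost share while its own level rose. As a share of all counts the 6 binding proteins together took 2.24 ± 0.0432% in control CM and 2.67 ± 0.106% in 4-OHT CM.

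Several members that were not called had values that depended on single libraries. With each library left out in turn, the log2 fold change of IGF1R ran from -0.11 without control replicate 2 to -0.0026 without control replicate 1, that of IGF2 from 0.017 without 4-OHT replicate 2 to 0.25 without control replicate 2, that of IGFBP2 from 0.018 without control replicate 1 to 0.099 without 4-OHT replicate 3, and that of IGFBP7 from -0.030 to 0.015. IGFBP5 alone was called in all 6 of these analyses. Without control replicate 2, the members called were 4 higher (IGFBP3, IGFBP4, IGFBP5 and IGFBP6) and 1 lower (IGF2R), and over all genes the calls also grew, from 563 to 696 higher and from 527 to 834 lower.

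**Figure D4:**
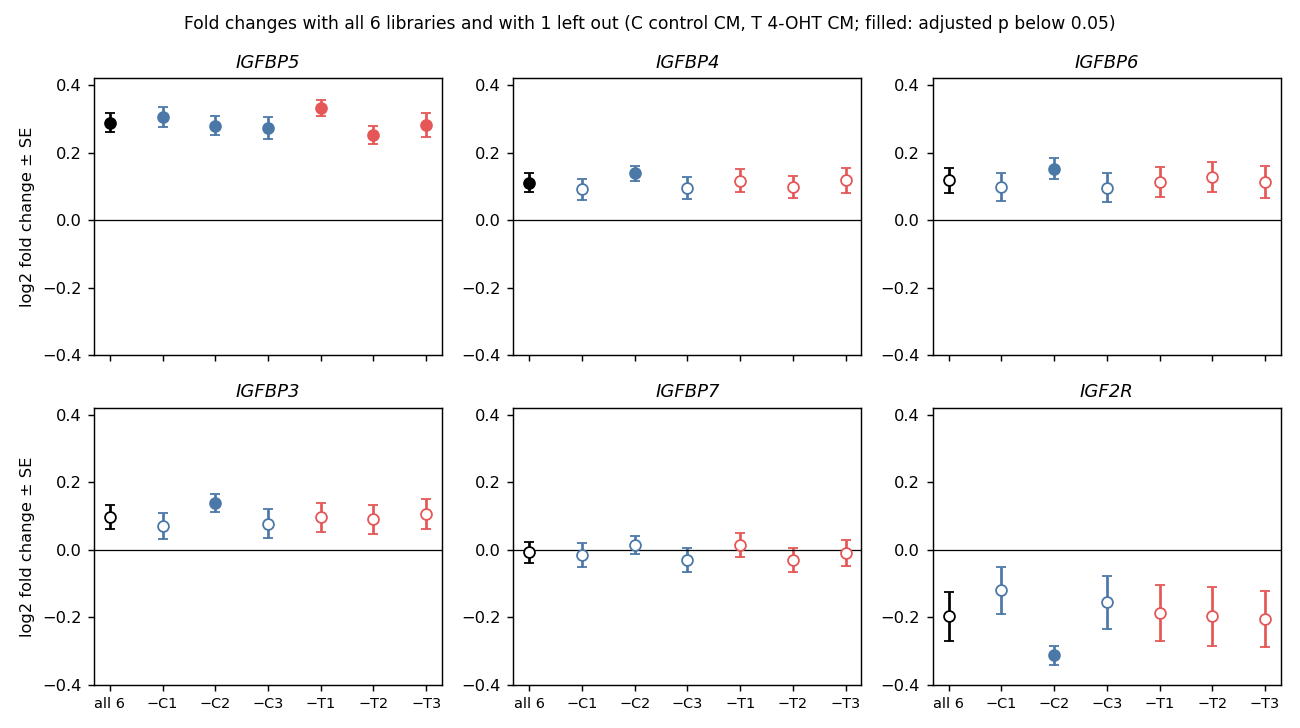
Log2 fold change ± SE of IGFBP5, IGFBP4, IGFBP6, IGFBP3, IGFBP7 and IGF2R with all 6 libraries and with each library left out in turn (C for a control library, T for a 4-OHT library, with its replicate number), filled where the adjusted p was below 0.05. IGFBP5 stays between 0.25 and 0.33 and is filled throughout, whereas IGF2R moves to -0.31 without control replicate 2.

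Among 49 other genes of the IGF pathway, 43 were tested, of which 3 rose, 2 fell and 38 did not pass, a number of calls to be read against the 2.95% of all genes called higher and the 2.76% called lower. Their median log2 fold change was 0.012, beside -0.0021 over all genes. This list was also chosen with earlier results of these data known. Without control replicate 2, HTRA1 and LRP1 passed as well, and both are named here after their values were seen. LRP1, an endocytic receptor, had 825, 545 and 789 CPM in control CM and 571, 605 and 594 CPM in 4-OHT CM, with control replicate 2 lowest of all 6 libraries, and its log2 fold change was -0.29 (adjusted p = 0.118) with all libraries and -0.45 (adjusted p = 1.68e-08) without that one. LRP1 has 20839 bases of exon, and in genes with 10000 bases or more control replicate 2 lay 0.11 below the other controls at the median. The part of exon length in the result of LRP1 was not tested. HTRA1, a secreted serine protease, had a log2 fold change of 0.10 (adjusted p = 0.135) with all libraries and 0.13 (adjusted p = 0.0208) without control replicate 2. The remaining binding and carrier proteins were hardly detected: IGFBP1 had 7 counts over all libraries, IGFALS 5 and IGFBPL1 0. INS and INSRR, with 0 and 2 counts, and the docking protein IRS4, with 6, were also below the minimum for the test.

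Of 10 extracellular proteases and inhibitors that act on binding proteins, 2 were called higher and 1 lower, beside 5.72% of all genes called in either direction, and whether calls gathered in this group was not tested. ADAMTS1, a secreted metalloprotease, measured 1432, 1331 and 1392 CPM in control CM and 1675, 1729 and 1743 CPM in 4-OHT CM, with no overlap. Its log2 fold change was 0.31 (SE 0.0303, adjusted p = 2.24e-05). STC1, a secreted glycoprotein that inhibits PAPPA, measured 38.2, 37.3 and 37.5 CPM in control CM and 45.9, 44.9 and 48.2 CPM in 4-OHT CM, a log2 fold change of 0.30 (SE 0.0453, adjusted p = 0.000819). Both genes were called in 14 of 14 alternative analyses. ADAM12, a metalloprotease that can cleave IGFBP3 and IGFBP5, was lower, at 10.9, 10.5 and 10.6 CPM in control CM and 7.99, 8.90 and 8.63 CPM in 4-OHT CM (log2 fold change -0.32, SE 0.0868, adjusted p = 0.0391). That call was lost in 7 of 14 alternatives, which were DESeq2 (adjusted p = 0.0982), the replicate block (adjusted p = 0.0667) and the analyses without any 1 library other than control replicate 2 (adjusted p from 0.0708 to 0.142). PAPPA itself, the main protease of IGFBP4, had 96.7 ± 13.9 CPM in control CM and 104 ± 3.46 CPM in 4-OHT CM (log2 fold change 0.10, adjusted p = 0.537).

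Of 7 CCN proteins and other relatives that carry an IGFBP-like domain, 1 was called higher and 1 lower, beside the same 5.72% of all genes, and this group was likewise not tested as such. CCN4, a matrix protein induced by Wnt signaling, rose from 135 ± 5.91 to 153 ± 2.73 CPM (SD, n = 3 each; log2 fold change 0.17, SE 0.0389, adjusted p = 0.0132), a call lost without 4-OHT replicate 2 (adjusted p = 0.0851) or control replicate 3 (adjusted p = 0.0864). CCN1, an integrin-binding matrix protein and target of YAP, fell from 911 ± 7.33 to 806 ± 73.6 CPM (log2 fold change -0.18, SE 0.0474, adjusted p = 0.0400). Its controls lay close together at 902, 916 and 914 CPM, while the 4-OHT libraries measured 727, 872 and 820 CPM. Without 4-OHT replicate 1, the lowest of them, the log2 fold change of CCN1 was -0.10 (adjusted p = 0.146), and the call was also lost without 4-OHT replicate 3 (adjusted p = 0.0792), control replicate 1 (adjusted p = 0.0704) or control replicate 3 (adjusted p = 0.0942).

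Downstream of the receptors, 0 of 8 adaptors and docking proteins and 0 of 10 genes of the PI3K-AKT arm passed the edgeR test, and with 5.72% of all genes called, few calls would fall in lists of this size at the background share. In each of these groups 1 gene had an unadjusted p below 0.05, and DESeq2 and limma-voom called 0 as well. IRS1, the main docking protein of IGF1R, measured 196, 202 and 194 CPM in control CM and 189.0, 200 and 192 CPM in 4-OHT CM (log2 fold change -0.025, adjusted p = 0.789). IRS2, its paralog, had 32.5 ± 0.974 and 29.8 ± 1.89 CPM (log2 fold change -0.12, adjusted p = 0.284). The insulin receptor gene INSR measured 13.2, 12.1 and 11.8 CPM in control CM and 10.6, 11.6 and 11.1 CPM in 4-OHT CM, lower in every library without passing the test (log2 fold change -0.15, adjusted p = 0.378). Of the 3 IGF2 mRNA-binding proteins and H19, the imprinted noncoding neighbour of IGF2, 0 of 4 were called by edgeR, DESeq2 or limma-voom (1 at an unadjusted p below 0.05 by edgeR), and H19 had 18 counts over all libraries (adjusted p = 0.354).

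**Figure D5:**
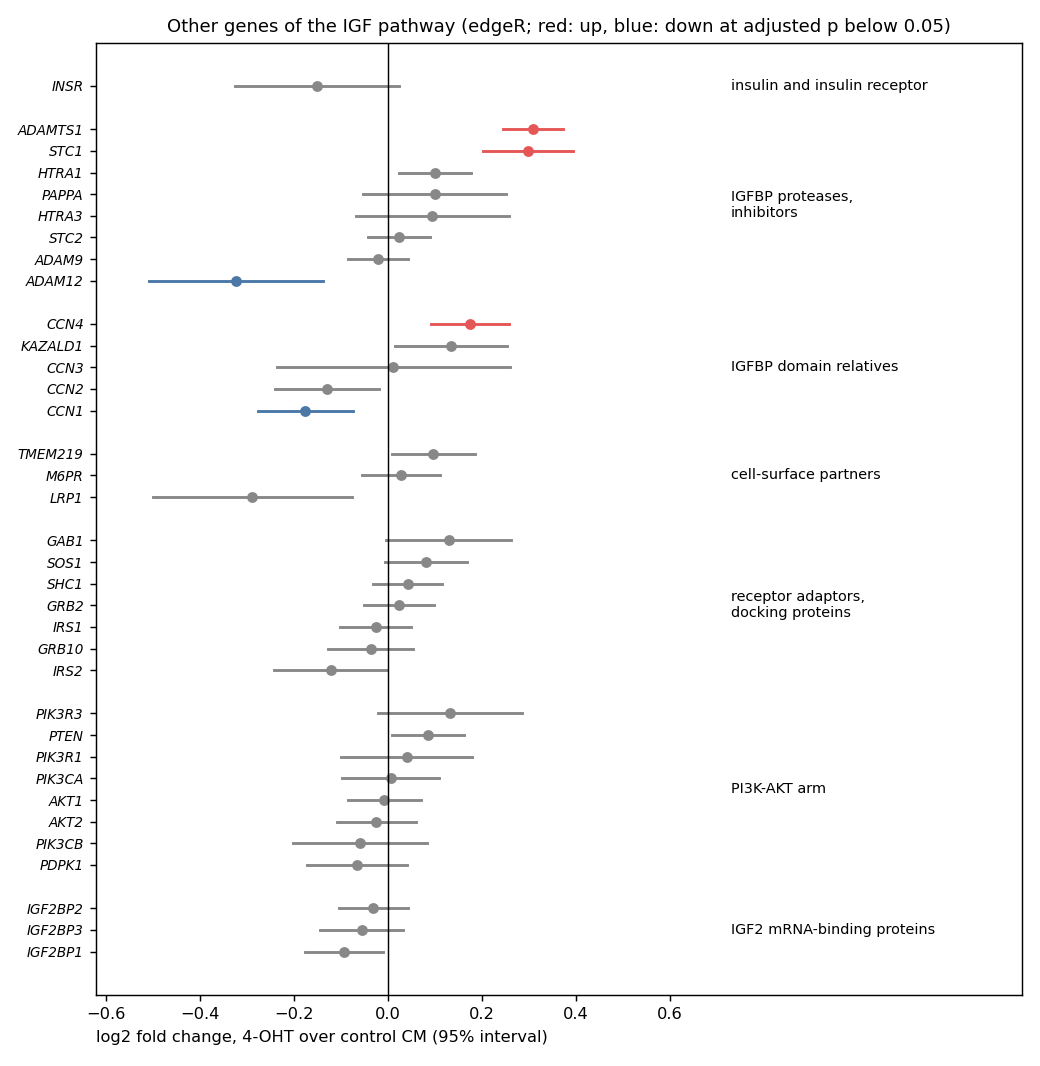
Log2 fold change with its 95% interval for 35 of the 43 tested genes of the wider IGF pathway, grouped by role, with red for genes called higher and blue for genes called lower at an adjusted p below 0.05. ADAMTS1, STC1 and CCN4 are in red and ADAM12 and CCN1 in blue, and the 8 tested genes with an interval 0.6 or wider are left out.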

How the data were processed

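RNA-Seq of MRC5 cells was read from 1 deposited table of gene counts for 6 libraries. Per the labels and methods, the authors trimmed the paired reads with Trim Galore, aligned them to GRCh38 with HISAT2 2.1.0 and counted them with featureCounts 1.6.5. The annotation release, strand setting and treatment of multimapping reads are not given in the sources used here. The table also gives each gene's position and merged exon length. Of its 58676 identifiers, 45 stood on 2 lines, which were summed, and 58207 were named through GENCODE release 44.

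Genes with at least 10 counts over the libraries were tested with edgeR 4.0.16 (R 4.3.3): TMM library sizes, quasi-likelihood test, group as the only term, two-sided, Benjamini-Hochberg adjustment over all 19072 genes. CPM and FPKM use the TMM library sizes. SE is the size of the log2 fold change divided by the square root of F. The square root of the common dispersion was 4.36%. No 2 libraries matched within sampling noise. On simulated data the fit recovered 6 of 50 genes changed by 0.15 on the log2 scale, 34 of 50 changed by 0.3 and 46 of 50 changed by 0.6. A missing call therefore does not show the absence of a change as small as 0.15. The 10 genes and the pathway list were chosen with earlier results of these data known. Named genes were all 10, the called pathway genes with INSR, IGFBP1, PAPPA, STC1, IRS1, IRS2 and H19, and the 3 genes of at least 1 CPM closest to the member with the smallest p. Alternatives were DESeq2 1.42.0, limma-voom 3.58.1, DESeq2 size factors, library totals alone or without the 10 genes, other count filters, a replicate block, leaving out each library and, chosen after seeing the data, removal of a length trend.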

Additional observations from a re-analysis of the deposited data

How the results depend on the processing

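IGFBP5 was called under every alternative and IGFBP4 under all that kept the 6 libraries except library totals alone (log2 fold change 0.10, adjusted p = 0.0549). With genes of at least 1 count tested, IGF2R (-0.19), IGFBP3 (0.11) and IGFBP6 (0.13) also passed, IGFBP7 changed sign (0.0011), 4 members were higher and 1 lower, 4 pathway genes were lower and 875 genes were higher. The call of IGF2R in that fit came with an SE of 0.0368, beside 0.0719 in the main fit, and not with a larger change. IGFBP6 also passed with limma-voom (0.12) and after removal of the length trend (0.12). With library totals alone 1 member was higher, and with DESeq2 1 pathway gene was lower. Over the analyses without 1 library, calls ran from 289 to 696 genes higher and from 244 to 834 lower, from 1 to 4 members higher, from 0 to 1 member lower, and from 0 to 3 pathway genes lower and from 2 to 4 higher, with the fewest genes called without 4-OHT replicate 2 and the most without control replicate 2. Log2 fold changes ran from 0.091 to 0.14 for IGFBP4, from 0.070 to 0.14 for IGFBP3, from 0.096 to 0.15 for IGFBP6, from -0.31 to -0.12 for IGF2R and from -0.030 to 0.015 for IGFBP7, which was 0.015 without 4-OHT replicate 1 and 0.015 without control replicate 2. The cause of these differences was not tested.

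The labels number the replicates and do not say whether same-numbered libraries were prepared together. Deviations of same-numbered libraries from their group means correlated at 0.0346, -0.0042 and 0.0051. Of the control libraries, only replicate 1 correlated best with its own number. Such a check cannot exclude a shared preparation. With a replicate block, 502 genes were higher and 483 lower, 1 pathway gene was lower, and no member's call changed. The median of all genes moved by at most 0.0090 on the log2 scale under any scaling or filter. The low counts of IGF1 and IGF2 limit what could be detected for the ligands, and overlapping annotation makes their levels uncertain.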
